A study of Homo sapiens with 4 samples.

Results

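The loci of 10 genes that respond to Wnt signalling were examined in ChIP-seq peak lists from HepG2, a cell line grown from a human liver tumour and known to have constitutively active beta-catenin. The members are all peaks that overlap AXIN2, NKD1, RNF43, ZNRF3, LGR5, TCF7L2, LEF1, SP5, TBX3 or GLUL, or the 10 kb on either side of them, on the genome build hg19. They number 100 of the 46380 peaks in all, split into 61 of 29441 SMRC1 peaks, 16 of 3296 SATB1 peaks and 23 of 13643 NFIC peaks. The genes were chosen by name, for their place in the pathway, with no threshold on peak values, but with earlier results of these data known. In protein databases SMRC1 stands for SMARCC1, also called BAF155, which belongs to the core of SWI/SNF complexes that move nucleosomes. SATB1 organises chromatin and binds AT-rich DNA, and NFIC belongs to the nuclear factor I proteins, which recognise TTGGC. The cells carried no genotype change or treatment that the labels name, were crosslinked with 1% formaldehyde for 10 min, and gave 1 library per antibody. An input library is labelled but has no file analysed here. With 1 library each, no difference between antibodies can be set against a replicate spread, and beta-catenin and RNA were not measured.

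In canonical Wnt signalling, beta-catenin escapes its destruction complex, enters the nucleus and joins the DNA-binding proteins of the TCF/LEF family, which recognise a short motif with the core CTTTG. Many of the genes it switches on act back on the pathway. AXIN2 and NKD1 damp it inside the cell, RNF43 and ZNRF3 remove its Frizzled receptors from the membrane, and LGR5 binds R-spondins and so counters that removal. In the liver, beta-catenin activity marks the hepatocytes around the central vein, which make glutamine synthetase, the product of GLUL.

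Peaks of 2 or more antibodies met at the starts of AXIN2, NKD1, LGR5, SP5 and GLUL, and the SP5 and GLUL promoters are shown because RefSeq gives their sequence. The LEF1 promoter is shown beside them because no peak of any list lay within 2 kb of that gene's start. The lines give the 250 bases before the outermost start with a RefSeq promoter sequence at hand, on GRCh38.p14. They are read 5′ to 3′ on the strand of the gene. These starts were not matched to the gene starts used for the peaks. The LEF1 line may therefore belong to another start of that gene than the one without a peak. Capitals mark matches to the TCF/LEF motif in the form CTTTGAT or the form CTTTGAA, or with TT as its ending (CTTTGTT) or with TA (CTTTGTA), or to the nuclear factor I letters TTGGC, each searched on both strands. SP5 lies on the plus strand (chr2:170715087-170715336), GLUL on the minus strand (chr1:182391791-182392040) and LEF1 on the minus strand (chr4:108166302-108166551).
SP5 promoter: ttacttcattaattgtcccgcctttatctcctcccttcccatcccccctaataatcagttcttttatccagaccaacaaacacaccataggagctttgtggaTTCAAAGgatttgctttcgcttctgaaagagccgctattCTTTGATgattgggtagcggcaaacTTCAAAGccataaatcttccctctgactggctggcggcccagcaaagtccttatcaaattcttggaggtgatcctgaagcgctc
GLUL promoter: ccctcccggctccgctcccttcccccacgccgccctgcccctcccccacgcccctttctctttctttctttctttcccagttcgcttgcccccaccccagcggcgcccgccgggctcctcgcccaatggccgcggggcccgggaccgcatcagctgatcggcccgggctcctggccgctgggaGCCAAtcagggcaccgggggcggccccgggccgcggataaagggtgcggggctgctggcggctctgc
LEF1 promoter: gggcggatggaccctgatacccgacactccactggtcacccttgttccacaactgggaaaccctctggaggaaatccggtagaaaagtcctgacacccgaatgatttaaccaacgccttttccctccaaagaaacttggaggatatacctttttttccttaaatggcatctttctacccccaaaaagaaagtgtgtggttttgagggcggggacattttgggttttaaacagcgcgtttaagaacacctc

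The SP5 promoter held 3 TCF/LEF matches, with their first bases 148, 109 and 84 bases before the start. Such a match occurs in 12% of the 35116 RefSeq promoters of this length, and 3 or more occur in 43 of them (0.122%). GLUL had no TCF/LEF match and 1 TTGGC match, 67 bases before the start, whose letters overlap a CCAAT box. TTGGC occurs in 40.8% of promoters. The LEF1, TCF7L2 and RNF43 promoters held neither. The full nuclear factor I palindrome, which is TTGGC and its reverse complement with 5 bases between them, was in none of these 5 promoters and in 10 of all 35116. Of the bases shown, 45.6% were G or C for SP5, 74.8% for GLUL and 47.6% for LEF1, with a median of 58% over all promoters. TCF7L2 had 68% and RNF43 56%. AXIN2, NKD1, ZNRF3, LGR5 and TBX3 had no entry in the promoter table. A match describes these letters and not a bound site. The peaks are on hg19 and the promoters on GRCh38.p14, so the 2 were not placed on one map, and the sequence under the peaks was not used here.

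The loci had more peaks per length than the genome in each list. Their windows total 1076 kb and held 56.7 SMRC1 peaks per Mb, against 9.69 over chromosomes 1 to 22 and X, which is 5.85 times as many. For SATB1 the densities were 14.9 and 1.09 per Mb (13.7 times), and for NFIC 21.4 and 4.49 (4.76 times). With a flank of 50 kb the SATB1 ratio was 8.35. The density over other gene loci, those of the rest of the pathway included, was not analysed here, since hg19 gene positions were used for the 10 members only. SMRC1 peaks occurred in 9 of 10 loci, NFIC peaks in 8 and SATB1 peaks in 6. Of all 100 kb windows of the genome, 37.8% held an SMRC1 peak, 27.2% an NFIC peak and 8.63% a SATB1 peak, although the loci range from 24 to 238 kb and so are not of that length.

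**Figure D1:**
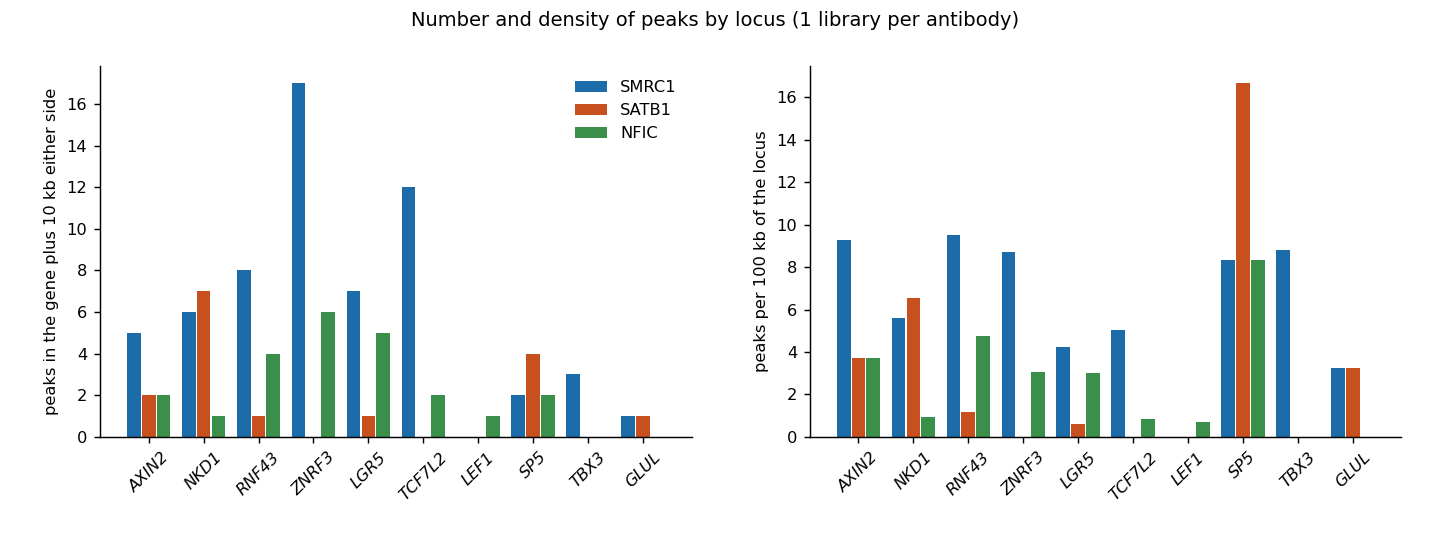
Number of peaks (left) and peaks per 100 kb (right) at each locus, with bars for the SMRC1, SATB1 and NFIC lists, 1 library each. ZNRF3 has the most SMRC1 peaks (17), NKD1 the most SATB1 peaks (7) and LEF1 a single NFIC peak.

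As a group, the members had folds near those of their lists. The authors' fold was taken as the reads at the summit over the local background, both scaled and with 1 added to each. It is therefore not the plain ratio of the reads and expected reads given below. Its median was 3.94 for the SMRC1 members (quartiles 3.15 and 5.52) and 4.08 over the whole SMRC1 list. The SATB1 medians were 3.69 and 3.54, and the NFIC medians 4.30 and 4.87. A −log10 q of at least 10 was reached by 29 of 61 SMRC1 members (47.5%), 3 of 16 SATB1 members (18.8%) and 12 of 23 NFIC members (52.2%), where the whole lists had 43.7%, 13.8% and 46.3%. Exact binomial 95% intervals of the members' shares were 34.6 to 60.7, 4.05 to 45.6 and 30.6 to 73.2, and each spans its list's share. These intervals cover counting error only, and peaks of 1 locus are not independent of each other.

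Within the loci, peaks with an edge within 2 kb of a gene start ranked higher at the median than the others, although the strongest peaks of RNF43, ZNRF3, LGR5, TCF7L2 and TBX3 lay away from the start. Ranked by −log10 q within the SMRC1 list, the 12 peaks at gene starts had a median percentile of 80.3 and the 49 others one of 41.7. The 5 SATB1 peaks at starts had a median percentile of 88.1 and the 11 others 24. Among NFIC peaks the medians were 74.0 for 7 peaks and 35.3 for 16. The ranges overlapped in all 3 lists, from 28.3 to 99.3 at starts and 5.17 to 98.3 elsewhere for SMRC1. Peaks were assigned by their edges, so a wider peak reaches a start more easily. Median widths at starts and elsewhere were 1253 and 626 bp for SMRC1, 955 and 347 bp for SATB1, and 664 and 566 bp for NFIC. The part of width in the ranks was not tested. A start lay under an SMRC1 peak, or within 2 kb of one, in 7 genes (AXIN2, NKD1, LGR5, TCF7L2, SP5, TBX3 and GLUL). NFIC had such a peak at 5 (AXIN2, NKD1, RNF43, LGR5 and SP5) and SATB1 at 4 (AXIN2, NKD1, SP5 and GLUL). Of 4 kb windows over the genome, 4.11% held an SMRC1 peak, 1.95% an NFIC peak and 0.461% a SATB1 peak; the starts of other genes were not analysed here. Gene positions were known to 1 kb only, so distances below that are not resolved, and exons and introns were not told apart.

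**Figure D2:**
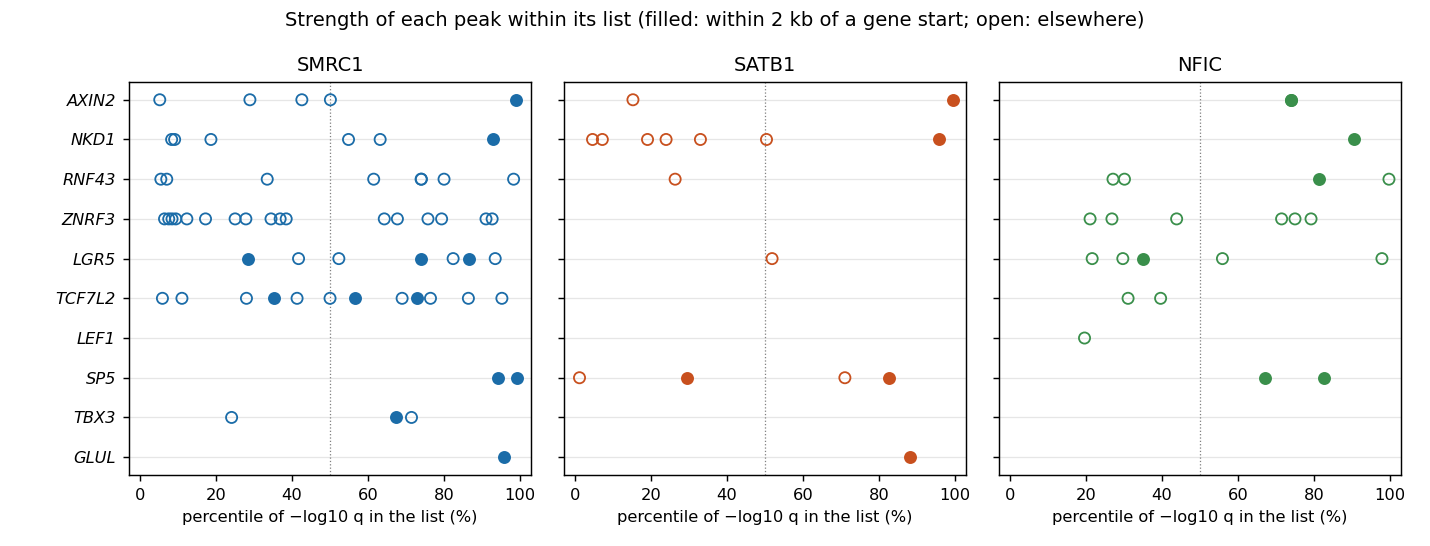
Percentile of each member peak by −log10 q within its own list (x axis, in percent) for the 10 genes (rows) and the 3 lists (panels), with filled points within 2 kb of a gene start and open points elsewhere. AXIN2 and SP5 have SMRC1 peaks at percentiles 98.9 and 99.3, both at the start, while the NFIC peak inside RNF43, at 99.7, lies away from it.

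AXIN2, a scaffold of the destruction complex and a direct beta-catenin target, had its strongest sites at the start in each list. The SMRC1 peak there (chromosome 17, 63555867 to 63558606) was 2740 bp wide, with a fold of 9.28 and rank 313 of 29441. Its summit held 171 reads (exact Poisson 95% interval 146 to 199) where 17.3 were expected from the local background. The SATB1 peak at the same place (63556566 to 63557997) had a fold of 8.90, with 102 reads (83.2 to 124) against 10.6 expected. It was rank 14 of 3296, the strongest SATB1 member of all. Summits of these 2 peaks lay 78 bp apart. The NFIC peak under them (63556567 to 63557230) was weaker for its list, with a fold of 4.25, rank 3552 and 60 reads against 13.3 expected, and its summit lay 1012 bp from that of SMRC1. Another NFIC peak (63559834 to 63560254), with its summit 2.0 kb before the start, had a fold of 5.59 (44 reads, 7.05 expected) and no partner in the other lists. Elsewhere in AXIN2 there were 4 SMRC1 peaks with folds of 2.58 to 3.94 and 1 SATB1 peak 30.8 kb into the gene, of fold 3.76 from 16 reads. None of these 5 overlapped a peak of another list.

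NKD1, which binds Dishevelled and damps the signal, resembled AXIN2 at its start and differed at its end. All 3 lists had a peak at the start on chromosome 16. SMRC1 (50581157 to 50582594) had a fold of 5.79 with 118 reads (97.7 to 141) against 19.3 expected, and SATB1 (50581084 to 50582038) a fold of 4.37 with 57 reads (43.2 to 73.9) against 12.3. The summits of the 2 were 2 bp apart. NFIC (50581236 to 50582085) had a fold of 5.74 with 92 reads (74.2 to 113) against 15.2, at rank 1307 of 13643, and its summit lay 282 bp from that of SMRC1. The SATB1 peak was rank 139 of 3296. The last part of the gene and the sequence past it held 5 further SATB1 peaks, at 82.5 to 91.6 kb from the start, with folds of 3.22 to 4.53 and only 18 to 21 reads each. A sixth, 69.3 kb from the start, had a fold of 2.71 and lay under an SMRC1 peak of fold 4.27. Of these 6 SATB1 peaks, 3 overlapped SMRC1 peaks and none an NFIC peak. NKD1 had 7 of the 16 SATB1 members, more than any other locus, and was the only locus with more SATB1 than SMRC1 peaks besides SP5.

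RNF43 and ZNRF3 encode the paired ubiquitin ligases that clear Frizzled receptors, and both had their peaks mainly inside the gene. This was not particular to them, since 50 of the 61 SMRC1 and 16 of the 23 NFIC members lay inside a gene. The gene itself fills 64 kb of the 84 kb window at RNF43 and 175 of 195 kb at ZNRF3. In RNF43 the strongest site lay 26.0 kb from the start. NFIC (chromosome 17, 56468417 to 56469401) had a fold of 15.5 there, with 212 reads (184 to 243) against 12.7 expected, and was rank 38 of 13643. SMRC1 at that site (56468396 to 56469599) had a fold of 7.88, with 161 reads (137 to 188) against 19.3, at rank 499. The 2 summits were 41 bp apart, and SATB1 had no peak there. At the RNF43 start there was an NFIC peak alone (56495114 to 56495681, fold 4.44, 75 reads against 16.1 expected). A site shared by all 3 lists lay 1.2 kb past the gene's end, on chromosome 17. SMRC1 (56429321 to 56430440) had a fold of 4.0 there with 76 reads against 18.0 expected, SATB1 (56429598 to 56429966) one of 2.43 with 44 against 17.5, and NFIC (56429493 to 56430041) one of 2.65 with 47 against 17.1. The next protein-coding gene on that side in RefSeq is SUPT4H1, so this site may belong to either locus, which was not determined.

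ZNRF3 had the most SMRC1 peaks of the 10 loci, 17 over a window of 195 kb, with folds of 2.66 to 7.35. None was at the start; the nearest was 5.0 kb into the gene, with a fold of 2.70. The strongest (chromosome 22, 29426459 to 29427838) had a fold of 7.32, with 93 reads (75.1 to 114) against 11.6 expected, 148 kb from the start. An NFIC peak of fold 4.88 shared that site with its summit 11 bp away. Of 6 NFIC peaks in ZNRF3, 4 overlapped an SMRC1 peak. The NFIC peak with the highest −log10 q (29450090 to 29450925) did not, and had a fold of 8.92 from 34 reads (23.5 to 47.5) against 2.92 expected. No SATB1 peak was listed in ZNRF3. Per 100 kb, ZNRF3 had 8.72 SMRC1 peaks, RNF43 9.52, AXIN2 9.26, TBX3 8.82 and SP5 8.33. Of these windows only that of ZNRF3 is longer than 100 kb, so the rates of the others rest on 2 to 8 peaks.

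LGR5, the R-spondin receptor that marks stem cells of several epithelia, had 3 SMRC1 peaks within 2 kb of its start on chromosome 12. These peaks nearly adjoin, and whether they are distinct sites was not determined. In the direction of transcription, the first (71832395 to 71833436) had a fold of 4.84 with 61 reads against 11.6 expected, and the next (71833520 to 71834054) a fold of 3.11 with 39 against 11.7. The last of them (71834108 to 71835276) had a fold of 6.77 with 70 reads against 9.24. It overlapped an NFIC peak (71834607 to 71835251) of fold 3.81 with 30 reads against 7.13, and the summits were 109 bp apart. The strongest SMRC1 peak of the locus was not at the start but 114 kb into the gene (71946564 to 71947658), with a fold of 8.57 and 87 reads (69.7 to 107) against 9.02 expected. That site was shared by all 3 lists, with a SATB1 fold of 3.88 (71946670 to 71946983, 26 reads, 5.96 expected) and an NFIC fold of 4.30 (71946875 to 71947457, 38 reads, 8.06 expected). The highest NFIC fold of any member, 23.2, also belonged to this locus. It lay 9.2 kb past the gene's end (71987786 to 71988695), with 80 reads (63.4 to 99.6) against 2.48 expected, and overlapped no peak of the other lists. It was among the members nearest the edge of the window, 8.79 kb from the gene.

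TCF7L2 and LEF1 encode DNA-binding partners of beta-catenin, and their loci differed in these lists. TCF7L2 had 12 SMRC1 peaks, 2 NFIC peaks and no SATB1 peak over 238 kb. Close to its start were 3 SMRC1 peaks. The first (114708987 to 114709809) had a fold of 3.98 with 50 reads against 11.6 expected, the next (114710077 to 114710861) one of 4.12 with 29 against 6.07, and the last (114711162 to 114712498) one of 5.78 with 48 against 7.23. The highest SMRC1 fold of any member, 10.0, lay 137 kb into TCF7L2 (chromosome 10, 114846824 to 114847743), with 89 reads (71.5 to 110) against 7.73 expected. An NFIC peak of fold 3.97 (114846932 to 114847551, 31 reads against 7.05 expected) had its summit 58 bp away. The second NFIC peak, of fold 3.72, lay 6 kb further on and also under an SMRC1 peak, of fold 6.82, with summits 46 bp apart. At LEF1, over 143 kb, neither SMRC1 nor SATB1 had a peak. The single NFIC peak there lay 3.6 kb before the start (chromosome 4, 109094423 to 109094857), with a fold of 5.48 that rested on 13 reads (6.92 to 22.2) against 1.55 expected. A list without a peak says only that no site passed the authors' threshold at this depth.

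SP5, a zinc finger factor that is a direct Wnt target, had the most peaks for its length when the lists are added, 8 over 24 kb. These 8 overlap and merge into only 2 sites, so that first place is by peaks and not by sites. The SMRC1 peak at the SP5 start (chromosome 2, 171570104 to 171573609) was the widest of all members, at 3506 bp, which is percentile 99.9 of the list. Its fold was 8.51, with 207 reads (180 to 237) against 23.2 expected, and it was rank 208 of 29441, the strongest SMRC1 member. Under it lay an NFIC peak of fold 4.32 (171571096 to 171571985, 81 reads, 18.0 expected) and 2 SATB1 peaks. One had a fold of 3.33 at the start (171571202 to 171572188, 52 reads, 14.9 expected), and the other a fold of 3.71 at 2.3 kb into the gene (171573151 to 171573480, 36 reads, 8.97 expected). The SATB1 and SMRC1 summits at the start were 16 bp apart, and those of NFIC and SMRC1 84 bp. A second site shared by all 3 lists had its SMRC1 summit 2.3 kb before the start, with a fold of 5.07 for SMRC1 (171567506 to 171569418, 149 reads, 28.3 expected) and of 3.70 for NFIC (171567969 to 171569099, 59 reads, 15.2 expected). It held 2 SATB1 peaks, of fold 1.95 (171568218 to 171568526, 42 reads, 21.0 expected) and 2.49 (171568649 to 171569300, 43 reads, 16.7 expected), and the first of these was the weakest SATB1 member (rank 3258 of 3296). The expected reads at this second site were the highest of the SMRC1 and SATB1 members, at 28.3 and 21.0.

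TBX3 and GLUL, the former a T-box transcription factor and the latter the pericentral glutamine synthetase, had 3 and 2 peaks in windows of 34 and 31 kb. TBX3 had SMRC1 peaks only. The one at its start (chromosome 12, 115121835 to 115122818) had a fold of 3.79 with 67 reads against 16.7 expected. The strongest (115104897 to 115106018) lay 2.6 kb past its end, with a fold of 5.67, 47 reads against 7.23 and rank 8410 of 29441, and another of fold 2.65 lay 1.2 kb past the end. GLUL had 1 SMRC1 peak at its start (chromosome 1, 182360276 to 182361646). Its fold of 9.70 was the second highest of the SMRC1 members, with 97 reads (78.7 to 118) against 8.84 expected and rank 1269. A SATB1 peak lay inside it (182360589 to 182360958, fold 4.50, 39 reads against 7.89 expected, rank 393 of 3296). The summits were 475 bp apart, and NFIC had no peak at GLUL.

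**Figure D3:**
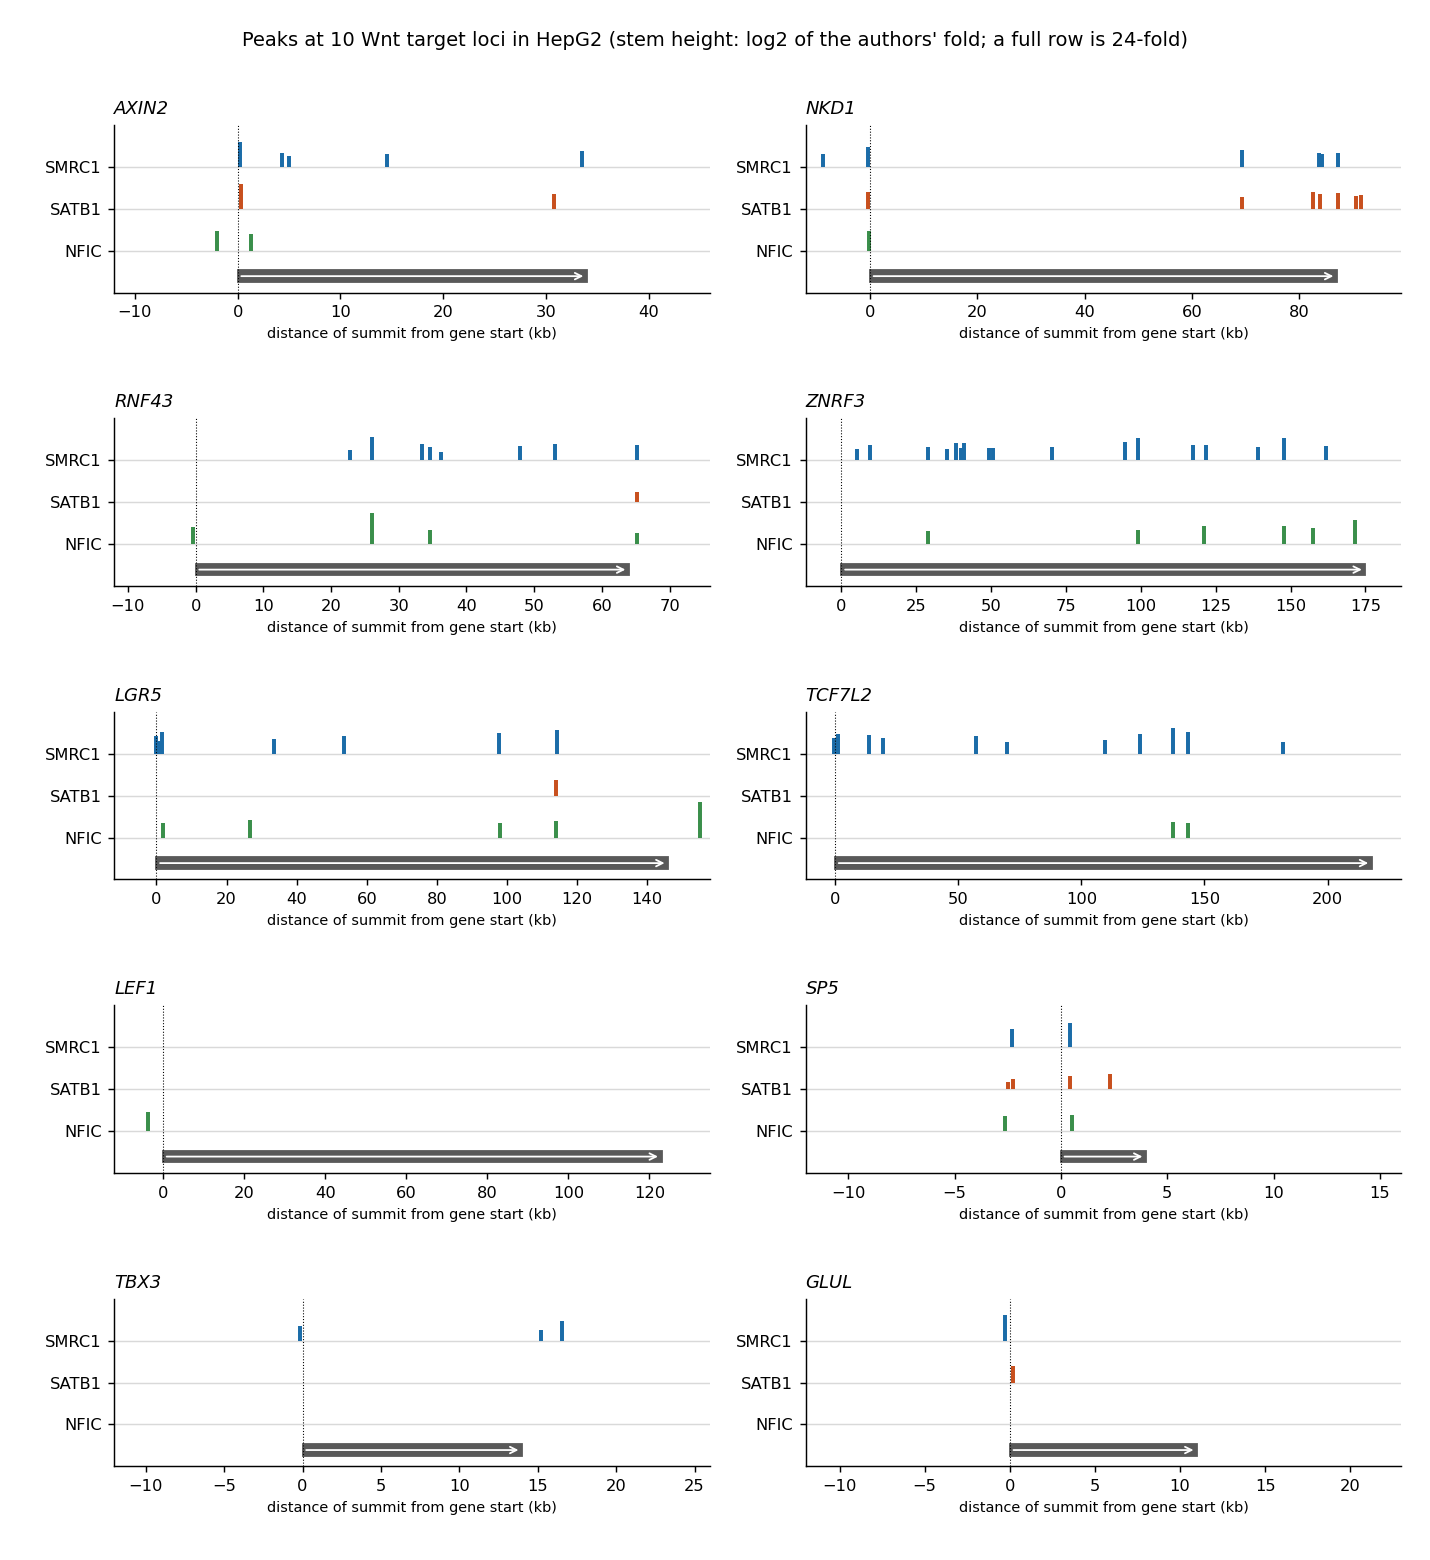
Positions of all member peaks at the 10 loci, as the distance of the summit from the gene start in kb (x axis, in the direction of transcription; grey bar, the gene), with 1 row per list and stem height showing log2 of the authors' fold. AXIN2, NKD1 and SP5 have peaks of all 3 lists at the start, ZNRF3 and RNF43 have SMRC1 and NFIC peaks inside the gene, and LEF1 has a single NFIC peak.

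When overlapping peaks were merged, the 100 peaks made 71 sites. SMRC1 alone accounted for 40 sites, NFIC alone for 7 and SATB1 alone for 4. SMRC1 and NFIC shared 10, in RNF43, ZNRF3, LGR5 and TCF7L2, and SMRC1 and SATB1 shared 4, in NKD1 and GLUL. The remaining 6 held peaks of all 3 lists, 2 at SP5 and 1 each at AXIN2, NKD1, RNF43 and LGR5. All 7 SATB1 members on an NFIC peak also overlapped an SMRC1 peak, as did 854 of the 902 such SATB1 peaks in the whole list. Summits of overlapping peaks were a median of 90 bp apart for SMRC1 and NFIC (16 pairs, 11 to 1012 bp). The medians were 159 bp for SMRC1 and SATB1 (13 pairs, 2 to 1844 bp) and 206 bp for SATB1 and NFIC (7 pairs, 32 to 934 bp). Overlap itself limits these distances, and those over the whole lists were not computed.

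Counted by peak, 16 of 61 SMRC1 members (26.2%, exact binomial 95% interval 15.8 to 39.1) overlapped an NFIC peak, against 23.7% of the list. A SATB1 peak overlapped 11 of them (18.0%, 9.36 to 30.0), against 8.61% of the list. Of the NFIC members, 16 of 23 (69.6%, 47.1 to 86.8) overlapped an SMRC1 peak and 6 (26.1%, 10.2 to 48.4) a SATB1 peak, where the list had 51.9% and 6.52%. Of the 16 SATB1 members, 12 (75%, 47.6 to 92.7) overlapped an SMRC1 peak and 7 (43.8%, 19.8 to 70.1) an NFIC peak, against 78.5% and 27.4%. Overlap with both other lists was found for 6 SMRC1 members (9.84%), 7 SATB1 members (43.8%) and 6 NFIC members (26.1%), with list values of 3.02%, 25.9% and 6.16%. The shares of SMRC1 with NFIC and of SATB1 with SMRC1 were near those of their lists. For SMRC1 and NFIC members the list's share with a SATB1 peak lay below the interval, but no test was made. The SMRC1 overlaps are clustered, with 5 of the 11 peaks at NKD1. Of the 6 NFIC overlaps, 2 were at SP5 and 1 each at AXIN2, NKD1, RNF43 and LGR5. These shares also move with the definition. When each list was held to its 3296 strongest peaks, 60% of the 10 SMRC1 members left had a SATB1 peak and 12.5% of the SATB1 members an NFIC peak. Asking for an overlap of 0.5 of the peak left 6.56% of SMRC1 members with a SATB1 peak. The whole lists' shares under these definitions were not computed, so these values cannot be set against the list shares above.

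The SATB1 members were unevenly spread over the loci. NKD1 alone held 7 of the 16, and LGR5 and GLUL 1 each. Chromosomes 2, 16 and 17 were picked after seeing the data, for the loci they hold. The shares below therefore describe that choice and cannot show an uneven spread over chromosomes. AXIN2, NKD1, RNF43 and SP5, on chromosomes 2, 16 and 17, make up 25% of the windows and held 14 of the 16 SATB1 members (87.5%), 21 SMRC1 members (34.4%) and 9 NFIC members (39.1%). Over the whole lists, these 3 chromosomes held 23.9% of SATB1, 18.9% of SMRC1 and 21.1% of NFIC peaks. For all SATB1 peaks the median number of expected reads was 11.7 on these chromosomes and 7.89 on the others, and for SMRC1 the values were 13.7 and 10.0. At the SATB1 members themselves the medians were closer, 8.41 for the 14 on these chromosomes (3.52 to 21.0) and 6.93 for the other 2. The 7 SATB1 members of NKD1 had a median of 4.90, below that of the other chromosomes, and the 4 of SP5 one of 15.8. The members' medians were 14.2 and 9.02 for SMRC1 and 15.2 and 7.05 for NFIC. Of the 11 SMRC1 members with a SATB1 peak, 9 were on these 3 chromosomes. The part of the background in the number of SATB1 peaks was not tested.

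**Figure D4:**
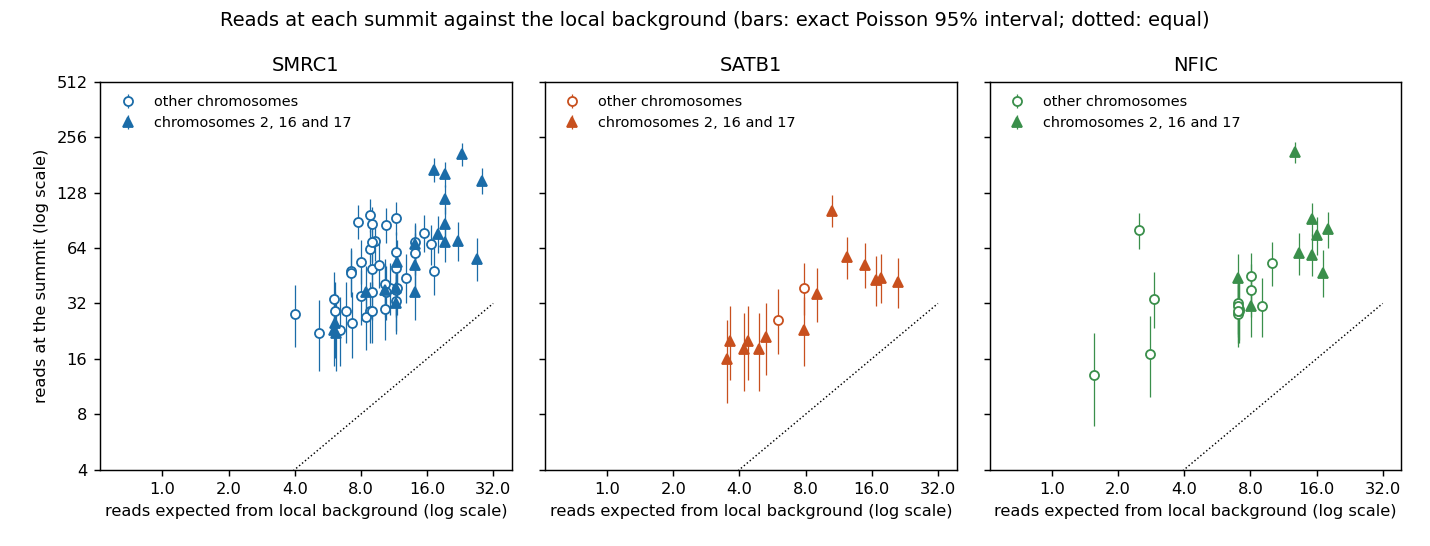
Reads at each member's summit (y axis, log scale) against the reads expected there from the local background (x axis, log scale), by list, with exact Poisson 95% intervals as bars, triangles for chromosomes 2, 16 and 17 and circles for the others. All members lie above the dotted line of equal values, and in each list the triangles reach further right than the circles, up to 28.3 expected reads for SMRC1, 21.0 for SATB1 and 18.0 for NFIC.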

How the data were processed

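ChIP-seq peak lists of HepG2 cells for SMRC1, SATB1 and NFIC, 1 library each, were used. The submitters' processing notes name Bowtie 1.1.2 with SAMtools, MACS2 2.1.1, deepTools and the build hg19. Their settings, the control behind the peak calls and the library depths: not given in the sources used here. The deposited lists have no header and 10 columns in narrowPeak order. Fold, as deposited, was taken as the ratio of summit reads to local background, both scaled by a factor per list and with 1 added to each. The −log10 p and −log10 q are those the authors deposited from their peak caller, and the deposited score is 10 times −log10 q without its decimals, except for 2 peaks of the SMRC1 list. The position column gives the deposited summit offset.

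Positions are 1-based. Gene positions in kb come with the rule for the members, gene strands from general knowledge, checked for 5 genes against RefSeq, and chromosome lengths from GenomeInfoDb 1.38.1. Overlap means at least 1 bp, and windows of the genome were tiled from position 1 of each chromosome, assembly gaps included. Reads at a summit and the expected reads were solved from the fold, taken with a pseudocount of 1, and the Poisson p, with reads whole within 0.01. This gave 1 solution for 95 of the 100 members and the closest of several for the other 5. The solving also used a scale factor per list, fitted on 400 of its peaks so that most reads came out whole. The factor was 0.7764 for SMRC1, 1 for SATB1 and 0.993 for NFIC. The Poisson intervals leave out any error in it. Expected reads are at the depth of each ChIP library. Reads are not known to be independent molecules. The solving and the overlap count were tested on simulated data. No test between antibodies was made, since each has 1 library. The members, lists and settings were chosen with earlier results of these data known. Named with position, fold and reads were the strongest peak of each list per locus, peaks within 2 kb of a start and sites of all 3 lists; the ranges of the rest follow. The split by chromosomes 2, 16 and 17 was added after seeing the data. Scripts ran in Python 3.11.15 with scipy 1.17.1, pandas 2.3.3, numpy 2.4.6 and, for figures, matplotlib 3.10.9.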

Additional observations from a re-analysis of the deposited data

How the results depend on the processing

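The results were recomputed with other thresholds, flanks, definitions of a shared site and distances from the start, or without the longest locus. Of 129 values in all, 113 stayed within their spread or counting interval or, for counts, within 1.5 times. The 129 include whole-list median expected reads on chromosomes 2, 16 and 17 and on the others. These recompute no result and were all counted as unchanged. A −log10 q of at least 2 left 61 SMRC1, 15 SATB1 and 23 NFIC members, so its values could hardly move. Some intervals were wide, such as 4.05 to 45.6 for the SATB1 share with −log10 q of at least 10. The count of 113 therefore does not measure how stable the results are. With a −log10 q of at least 10, the loci held 29 SMRC1, 3 SATB1 and 12 NFIC peaks, SATB1 peaks were left in 3 loci, the median fold was 5.67 for SMRC1 and 4.50 for SATB1, and 100% of the 3 SATB1 peaks overlapped an SMRC1 peak. Without a flank, 10 SATB1 peaks remained. With a flank of 50 kb, the density was 4.18 times that of the genome for SMRC1, 8.35 for SATB1 and 3.68 for NFIC. When an overlap of 0.5 of the peak was asked for, 6.56% of SMRC1 members had a SATB1 peak, and with summits within 200 bp, 43.8% of SATB1 members had an SMRC1 peak and 18.8% an NFIC peak. With each list held to its 3296 strongest peaks, 10 SMRC1 and 6 NFIC members were left, 60% of these SMRC1 members had a SATB1 peak and 12.5% of SATB1 members an NFIC peak. For these other definitions of sharing, the shares over the whole lists were not computed. No paired analysis was possible because each antibody has 1 library. Depth limits the members with the fewest reads, down to 13 for NFIC, 16 for SATB1 and 22 for SMRC1.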

Other observations

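Beyond the 10 kb flank, between 10 and 50 kb from the genes, there were 15 more SMRC1 peaks in 7 of the loci, 8 NFIC peaks in 5 and 1 SATB1 peak. The highest fold among these was that of an NFIC peak 16.8 kb from NKD1, at 16.7 and rank 41 of 13643. The highest for SMRC1 was 7.10, at 11.5 kb from TBX3. LEF1 and GLUL gained no peak of any list out to 50 kb. At the edge of the window, the outermost SMRC1 member was 8.14 kb from NKD1 (fold 3.05) and the nearest SMRC1 peak outside 10.8 kb from AXIN2 (fold 2.84). For NFIC these were 8.79 kb from LGR5 (fold 23.2) and 11.5 kb from AXIN2 (fold 3.67), and for SATB1 4.33 and 17.5 kb, both at NKD1 (folds 3.51 and 2.66).

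At the AXIN2 start the SATB1 and NFIC peaks began 1 bp apart although their ends were 767 bp and their summits 934 bp apart.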
